A study of Mus musculus with 6 samples.

Results

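The 10 genes described here build skeletal muscle, and they were taken from an RNA-seq comparison of male mouse embryos at E9.5 with and without functional Smchd1. The labels give *Smchd1*+/+ for the wildtype embryos, *Smchd1*MommeD1/MommeD1 for the embryos homozygous for the MommeD1 mutation, male sex for all, and a C57Bl6/J x FVB/n strain background for all. There were 3 embryos of each genotype, and the genotype of each was read from its yolk sac. The study's text gives a backcross to another strain for these embryos, so the background is uncertain. All came from matings of mice heterozygous for MommeD1, a mutation found in a chemical mutagenesis screen, and the RNA was that of whole embryos.

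The members were chosen by gene symbol, as 10 of the 24207 loci in the authors' table, and each symbol matched 1 locus. The list was drawn up with the mutant and wildtype values of these genes already known, so the difference between the genotypes is given as a description. It held 4 myogenic factors (*Myf5*, *Myf6*, *Myod1* and *Myog*), 4 contractile genes (*Myh3*, *Myh8*, *Acta1* and *Tnnt1*) and 2 subunits of the muscle acetylcholine receptor (*Chrna1* and *Chrng*). The table gives 1 FPKM value per genotype (fragments per kilobase of transcript, scaled to the mapped fragments of the library), which combines the 3 embryos, so levels can be compared between genes per length. No value per embryo was used, no spread between embryos can be given, and no difference here was tested.

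Skeletal muscle of the trunk forms from the myotome of the somites. Myogenic factors are basic helix-loop-helix proteins that bind DNA together with E proteins such as those of *Tcf3* and *Tcf12*, and in the mouse *Myf5* is the first of them to be expressed in the somites, followed by *Myog*, while *Myod1* comes later. They switch on the genes of the sarcomere and of the muscle endplate. At this stage the heart is the tissue that already contracts, and it shares several sarcomere genes with early skeletal muscle.

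*Smchd1* itself (mm10, chr17:71344415-71475343) checks the labels, with 2.12 FPKM in the mutant against 34.0 FPKM in the wildtype embryos. Log2 ratios below are mutant over wildtype with 0.1 FPKM added to each value, which draws the ratios of low genes towards 0. A locus was counted as past the fold at 1.5-fold in either direction, and ratios were read at a mean over both genotypes of at least 1 FPKM. Of 12463 loci at that level, 3.51% were past the fold with the mutant higher and 1.47% with the mutant lower, and the median log2 ratio was -0.0076.

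Of the 10 members, 9 had the higher value in *Smchd1*MommeD1/MommeD1 embryos and *Acta1* had the lower. With 5 members at a mean of at least 1 FPKM, 2 were past the fold with the mutant higher, *Myog* and *Myh3*, and 0 with the mutant lower. These are the values that the list was drawn up from, so nothing is read from that share. *Myh3*, at 0.876 FPKM in wildtype embryos, reached a mean of 1 FPKM only through its mutant value. *Myf5*, at a mean of 1.63 FPKM, was the lowest member above that level and *Myf6*, at 0.718 FPKM, the highest below it. The order of the members by mean level ran from *Acta1* through *Tnnt1*, *Myog*, *Myh3*, *Myf5*, *Myf6*, *Chrng*, *Myod1* and *Chrna1* to *Myh8*. Without a spread between embryos, it cannot be said which neighbours in that order differ.

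**Figure D1:**
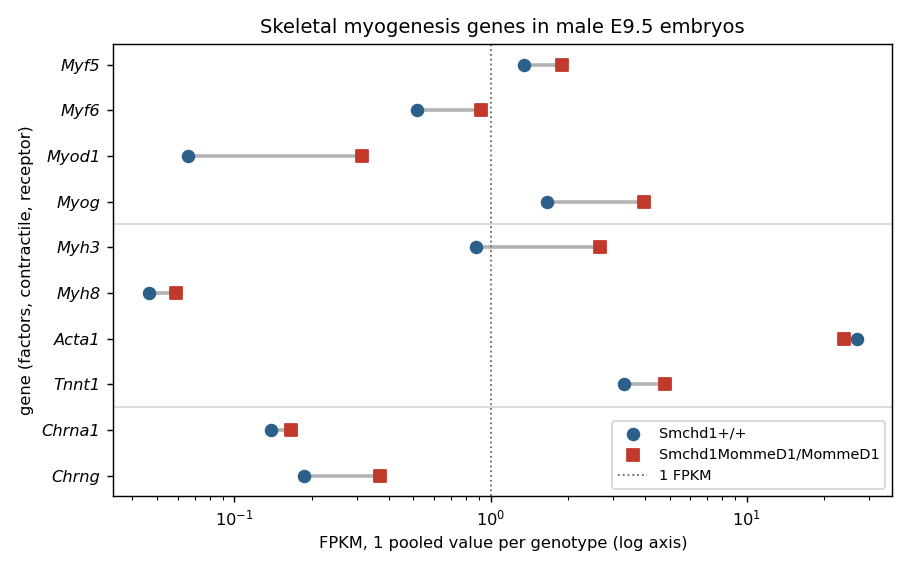
FPKM of the 10 members on a log axis, 1 point per genotype combining 3 embryos (circles, Smchd1+/+; squares, Smchd1MommeD1/MommeD1; dotted line, 1 FPKM). The square lies to the right of the circle for 9 genes and to the left for *Acta1*, at 23.9 against 27.0 FPKM.

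*Myog* encodes myogenin, the factor that drives myoblasts to differentiate into muscle fibres. It was at 3.98 FPKM in mutant and 1.67 in wildtype embryos, a 2.39-fold higher value and a log2 ratio of 1.21. Of the loci at a mean of at least 1 FPKM, 72 had a larger log2 ratio. The gene has 3 exons on the plus strand of chromosome 1 (mm10, chr1:134290004-134292548).

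*Myf5*, whose product commits somite cells to the muscle lineage, was at 1.91 FPKM in mutant and 1.35 in wildtype embryos. That is a log2 ratio of 0.46, a smaller difference than that of *Myog* and short of the 1.5-fold line, which lies at 0.585 on the log2 scale. *Myf5* lies on chromosome 10 from 107482908 to 107486134 on the minus strand. *Myf6*, which encodes the factor MRF4, lies on the same strand from 107492860 to 107494729, with 6725 bp between the loci, and was at 0.919 FPKM in mutant and 0.517 in wildtype embryos. *Myod1*, whose product can turn other cells into muscle, lies on chromosome 7 from 46376474 to 46379092. It was at 0.314 and 0.0662 FPKM, a level at which the authors' program left it untested for low coverage.

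Of the 4 factors, 1 (*Myog*) was thus past the fold among the 2 at 1 FPKM or more, and their mix can be given as shares. The FPKM of the 4 added up to 7.12 in mutant and 3.60 in wildtype embryos, a 1.98-fold difference. *Myog* made up 55.9% of that sum in mutant and 46.2% in wildtype embryos, and *Myf5* made up 26.8% and 37.6%. *Myod1* stayed the smallest part, at 4.41% and 1.84%. The ratio of *Myog* to *Myf5*, which no scaling between the genotypes can change, was 2.09 in mutant and 1.23 in wildtype embryos.

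Among the contractile genes, *Myh3* encodes the embryonic myosin heavy chain, an early marker of differentiated skeletal muscle. It was at 2.67 FPKM in mutant and 0.876 in wildtype embryos, a 3.05-fold higher value and a log2 ratio of 1.504, the largest of the members above 1 FPKM. Of the loci at that level, 36 had a larger ratio. The wildtype value was below 1 FPKM, so *Myh3* was counted at that level only through its mutant value. *Myh3* lies on chromosome 11 from 67078300 to 67102291 on the plus strand and has 41 exons. *Myh8*, which encodes the perinatal myosin heavy chain and lies in the same gene cluster as *Myh3* with 174832 bp between the loci, was at 0.0593 FPKM in mutant and 0.0462 in wildtype embryos. The perinatal myosin was therefore near 0 in both genotypes, as were the adult fast myosins *Myh1*, *Myh2* and *Myh4*, each at most 0.0191 FPKM.

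*Tnnt1*, the slow skeletal form of troponin T, is on chromosome 7 from 4504627 to 4515975. It was at 4.80 FPKM in mutant and 3.32 in wildtype embryos, a log2 ratio of 0.52, just short of the fold. *Acta1*, the skeletal form of alpha-actin, which the embryonic heart also makes, is on chromosome 8 from 123891767 to 123894736. It was at 23.9 FPKM in mutant and 27.0 in wildtype embryos, a log2 ratio of -0.17. The most abundant member was thus the one that was not higher in mutant embryos, and the ratio of *Myh3* to *Acta1* was 0.111 in mutant and 0.0325 in wildtype embryos.

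The 2 receptor genes were scarce. *Chrna1* encodes the subunit that carries the main part of the acetylcholine binding site, and *Chrng* encodes the subunit of the fetal receptor that *Chrne* replaces in the adult. *Chrna1* (chr2:73563281-73580306) was at 0.166 FPKM in mutant and 0.140 in wildtype embryos. *Chrng* (chr1:87205811-87211835) was at 0.371 and 0.187 FPKM. The authors' program left both untested for low coverage, as it did *Myod1* and *Myh8*.

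How far a low value can be read depends on the level. Among the loci with a mean of 1 to 5 FPKM, where *Myf5*, *Myog*, *Myh3* and *Tnnt1* lie, 8.57% were past the fold with the mutant higher and 2.90% with the mutant lower, against 2 and 0 of these 4 members. At a mean of 0.1 to 1 FPKM the shares were 17.3% and 7.97%, and 3 of the 4 members there (*Myf6*, *Myod1* and *Chrng*) were past the fold with the mutant higher. Fold differences were thus common among scarce loci in general, and those of the scarce members are given as values only.

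**Figure D2:**
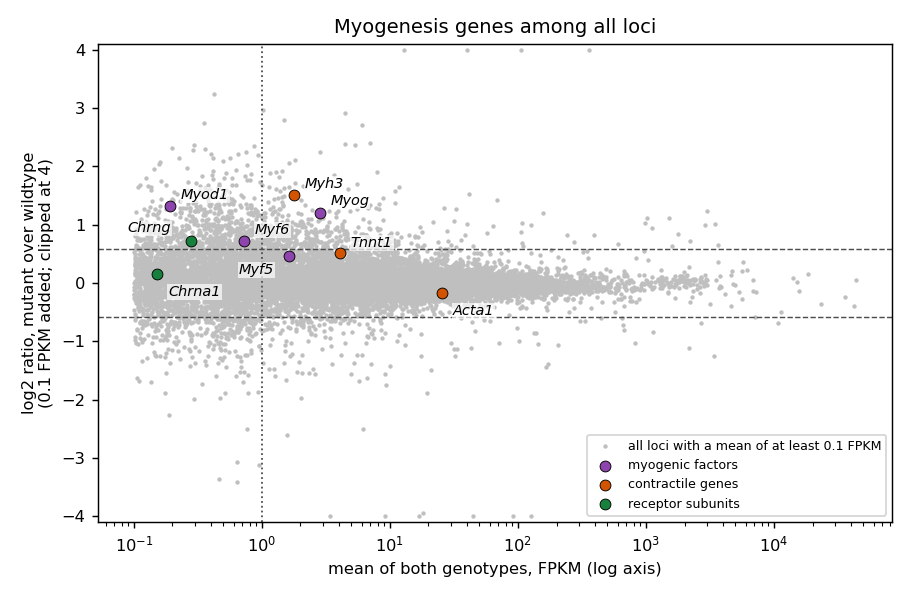
Log2 ratio of mutant over wildtype (0.1 FPKM added, clipped at 4 in both directions) against the mean FPKM of both genotypes on a log axis, for all loci averaging 0.1 FPKM or more (grey) and 9 members (coloured by role). Dashed lines mark 1.5-fold and the dotted line 1 FPKM. *Myog* and *Myh3* lie above the upper line right of 1 FPKM and *Acta1* below 0, and the grey cloud widens towards low levels.

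Myogenic factors and contractile genes were set side by side. Over members at a mean of at least 1 FPKM the median log2 ratio was 0.84 for the factors (*Myf5* and *Myog*) and 0.52 for the contractile genes (*Myh3*, *Tnnt1* and *Acta1*), a difference of 0.32. Both kinds of gene held 1 member past the fold, and the contractile genes ranged more widely, from -0.17 to 1.504, so the factors lay within the range of the contractile genes. The upper end of that range is *Myh3*, which reached 1 FPKM on average only through its mutant value. With all 4 members of each kind the medians were 0.97 and 0.32. At a mean of at least 5 FPKM, *Acta1* alone remained and the median of the contractile genes was -0.17.

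Muscle promoters carry short motifs by which these factors act, and the stretches before the *Myog*, *Myh3*, *Tnnt1* and *Acta1* starts are shown because these genes span the differences above. The E-box, CANNTG, is the site that helix-loop-helix factors bind, the TATA box (TATAAA, on either strand) places the start of transcription, and the CArG box is bound by serum response factor. The MEF2 box, bound by the MEF2 partners of the myogenic factors, was searched as well. It was written as YTAWWWWTAR, where Y is C or T, W is A or T and R is A or G. Only exact matches were counted for every motif. Each sequence holds the 250 bases before the start in RefSeq (GRCm38.p6, the build of mm10), written 5′ to 3′ along the gene, with motif matches in capitals. They lie at chr1:134289754-134290003, plus strand (*Myog*), chr11:67078050-67078299, plus strand (*Myh3*), chr7:4515976-4516225, minus strand (*Tnnt1*) and chr8:123894776-123895025, minus strand (*Acta1*).
Myog: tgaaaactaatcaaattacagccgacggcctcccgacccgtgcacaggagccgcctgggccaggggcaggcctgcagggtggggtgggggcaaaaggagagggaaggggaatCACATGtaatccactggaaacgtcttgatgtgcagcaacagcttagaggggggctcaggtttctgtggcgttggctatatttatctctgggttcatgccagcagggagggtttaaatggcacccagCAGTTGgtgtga
Myh3: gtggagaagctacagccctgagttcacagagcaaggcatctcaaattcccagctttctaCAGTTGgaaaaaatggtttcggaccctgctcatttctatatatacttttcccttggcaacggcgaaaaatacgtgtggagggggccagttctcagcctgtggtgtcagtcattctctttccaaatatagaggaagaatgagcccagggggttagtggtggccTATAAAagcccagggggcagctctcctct
Tnnt1: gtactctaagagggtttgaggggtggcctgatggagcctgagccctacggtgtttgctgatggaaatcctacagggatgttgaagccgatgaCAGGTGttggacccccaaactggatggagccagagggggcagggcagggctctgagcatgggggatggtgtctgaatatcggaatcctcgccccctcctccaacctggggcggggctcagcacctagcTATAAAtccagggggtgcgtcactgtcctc
Acta1: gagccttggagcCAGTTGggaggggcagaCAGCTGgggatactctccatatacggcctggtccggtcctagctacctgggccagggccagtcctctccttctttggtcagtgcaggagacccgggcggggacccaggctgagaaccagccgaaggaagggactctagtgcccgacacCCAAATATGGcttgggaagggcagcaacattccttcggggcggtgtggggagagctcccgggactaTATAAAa

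RefSeq windows were matched for 8 of the 10 members, all but *Myf6* and *Myod1*. An E-box was found in 7 of the 8, with *Myf5* as the exception, against 66.2% of 32851 windows of all genes. *Myog* had E-boxes starting at -138 and -12 from its start, and *Myh3* had 1 at -191. *Chrna1* and *Chrng* had 3 each. TATA boxes were found in 4 windows, against 12.4% of all, starting at -29 in *Myh3*, -30 in *Tnnt1* and -7 in *Acta1*. For *Acta1* the RefSeq start lies upstream of the GENCODE start at 123894751, from which its distances would be longer. The RefSeq and GENCODE starts also differ for *Myog*, *Tnnt1* and *Chrng*. In *Myh8* the TATA match, on the other strand at -96, overlapped a MEF2 box at -99. CArG and MEF2 boxes each had 1 member, *Acta1* at -73 and *Myh8*, against 1.47% and 2.92% of all windows. Stretches 1 base off the MEF2 pattern, such as ctatatttat in *Myog*, were not counted, so a missing match does not mean that no MEF2 site is present. *Myog* and *Myh3*, the pair past the fold, shared no exact motif match that *Tnnt1* and *Acta1* lacked. A match says that the letters are present, and binding was not measured.

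**Figure D3:**
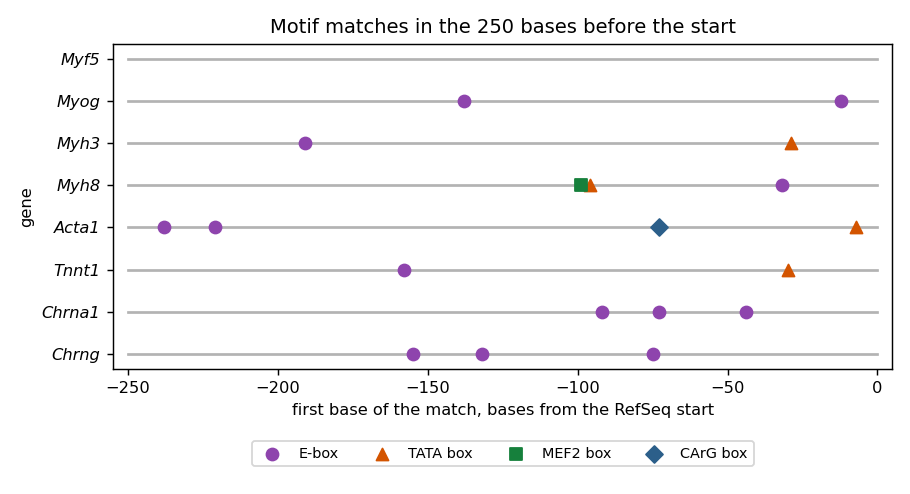
Motif matches in the 250 bases before the RefSeq start of 8 members, as the distance in bases of the first base of each match from the start (circles, E-box; triangles, TATA box; square, MEF2 box; diamond, CArG box). *Chrna1* and *Chrng* have 3 E-boxes each and *Myf5* has no match of any kind.

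Other genes of the muscle programme were then read from lists, which were chosen with earlier results of these data known. Their counts are given as a description. Of all loci at 1 FPKM or more, 3.51% were past the fold with the mutant higher and 1.47% with it lower. Other sarcomere genes of skeletal muscle numbered 19 in the table, of which 9 reached 1 FPKM. Of these, 2 were past the fold with the mutant higher and 0 with the mutant lower, and the median log2 ratio was 0.04. *Tnnc2*, the fast skeletal form of troponin C, was at 4.32 FPKM in mutant and 2.15 in wildtype embryos (log2 ratio 0.98). *Mylpf*, a fast skeletal myosin light chain, was at 10.8 and 6.02 FPKM (0.83). *Tnnt3*, the fast skeletal form of troponin T, was at 1.45 and 1.81 FPKM (-0.31), and *Tpm2*, a tropomyosin and the most abundant of the list, at 19.9 and 16.2 FPKM (0.29). Differences among these skeletal genes thus ran in both directions. Of the 10 below 1 FPKM on average, *Mybph*, at 1.21 and 0.484 FPKM, had the highest ratio and *Myh7b*, at 0.455 and 0.474 FPKM, the lowest.

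A further list held sarcomere genes of the heart, with the heat shock gene *Cryab* and the intermediate filament gene *Des* added. Early skeletal muscle also uses several of them, while others, such as *Myl7*, *Myh6* and *Tnni3*, mark the heart. Of 17, all above 1 FPKM, none was past the fold in either direction, and 13 were lower in the mutant embryos. The median log2 ratio was -0.15, with a range from -0.48 (*Cryab*) to 0.28 (*Des*). *Actc1*, the cardiac form of alpha-actin, was at 284 FPKM in mutant and 338 in wildtype embryos (log2 ratio -0.25). Its level was 11.9 times that of *Acta1* in mutant and 12.6 times in wildtype embryos. *Tnnt2*, the cardiac form of troponin T, was at 48.5 and 55.6 FPKM (-0.20), or 10.1 and 16.7 times the level of *Tnnt1*. *Myl7*, an atrial myosin light chain, was at 317 and 425 FPKM (-0.42), *Cryab*, a small heat shock protein, at 11.6 and 16.2 FPKM (-0.48), and *Des*, the muscle intermediate filament desmin, at 24.8 and 20.4 FPKM (0.28). *Myh6*, the heart's alpha myosin heavy chain, stood at 12.3 times *Myh3* in mutant and 43.5 times in wildtype embryos.

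Factors upstream of the myogenic factors formed another list. Of 14 at 1 FPKM or more, 0 were past the fold, 7 were higher and 7 lower in mutant embryos, and the median log2 ratio was 0.01. *Pax3*, which marks the dermomyotome and acts above *Myf5*, was at 10.8 and 9.52 FPKM (0.18). *Meox1*, the most abundant of the list, was at 21.9 and 24.9 FPKM (-0.18). The largest differences were those of *Pax7* at 3.53 and 2.42 FPKM (0.53), *Eya2* at 9.18 and 6.43 FPKM (0.51) and *Tbx1* at 4.20 and 5.31 FPKM (-0.33). Below 1 FPKM on average, *Lbx1*, which marks migrating limb muscle precursors, was at 1.21 and 0.430 FPKM, and *Msc*, a head muscle factor, at 1.17 and 0.455 FPKM. Set against *Pax3*, *Myog* stood at 0.368 in mutant and 0.175 in wildtype embryos and *Myf5* at 0.176 and 0.142. *Pax3* was measured in whole embryos and not in muscle precursors alone, so these ratios are not levels per precursor.

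Partners and inhibitors of the factors gave 1 of 14 past the fold, *Twist2*, at 12.3 and 7.83 FPKM (log2 ratio 0.64), a helix-loop-helix protein that holds back muscle genes. *Mdfi*, an inhibitor of the myogenic factors, was at 28.2 and 20.4 FPKM (0.47), and *Mef2c*, a partner, at 4.39 and 5.59 FPKM (-0.34). *Id3*, an inhibitor that takes up E proteins and the most abundant here, was at 179 and 173 FPKM (0.05). The median of the list was 0.07. Among all loci at 1 FPKM or more, 3.51% were past the fold with the mutant higher, so nothing is read from the count of 1.

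Of 11 other genes listed for the endplate, 8 lay below 1 FPKM on average and 3 above it, none of these past the fold, with a median log2 ratio of -0.12. *Agrn*, which encodes agrin and is also made by neurons and other tissues, was at 30.5 and 32.9 FPKM (-0.11). *Lrp4*, the agrin receptor, was at 6.61 and 7.20 FPKM (-0.12). *Dusp22*, whose ratio is the median of the 3, was at 8.33 and 9.05 FPKM (-0.12), and its place at the endplate was not checked. Of the receptor subunits outside the members, *Chrnb1* was at 0.550 and 0.567 FPKM and *Chrnd* at 0.0978 and 0.0536 FPKM. *Chrne*, the adult subunit, was at 0.0135 FPKM in mutant embryos and listed at 0 in wildtype embryos.

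Genes of myoblast fusion, calcium release and energy supply gave 1 of 9 past the fold, *Cdh15*, the muscle cadherin, at 1.74 and 1.12 FPKM (log2 ratio 0.60), with a median of 0.01. At a mean of 1 to 5 FPKM, where *Cdh15* lies, 8.57% of loci were past the fold with the mutant higher. Nothing is therefore read from this count. *Cacnb1*, a calcium channel subunit, was at 1.87 and 1.47 FPKM (0.32), *Atp2a1*, the calcium pump of fast muscle, at 1.13 and 0.917 FPKM (0.28), and *Jam3*, an adhesion protein and the most abundant, at 39.4 FPKM in both genotypes (-0.00). Of the 11 genes below 1 FPKM on average, *Tmem8c*, at 0.559 and 0.184 FPKM, had the highest ratio and *Sgca*, at 0.203 and 0.281 FPKM, the lowest. *Ckm*, the muscle creatine kinase, was at 0.0824 and 0.0318 FPKM.

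**Figure D4:**
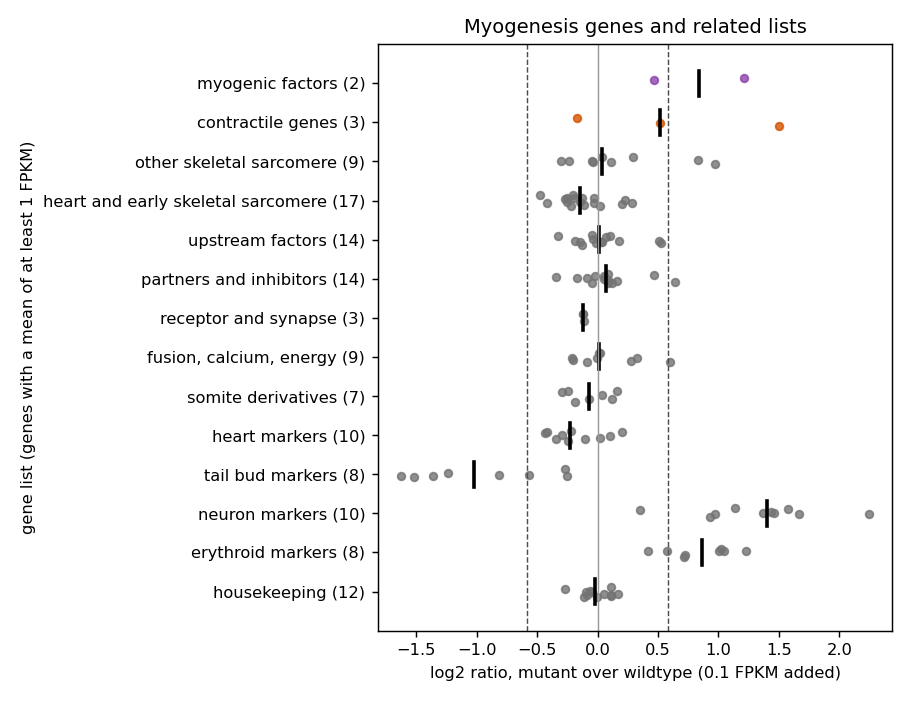
Log2 ratio of mutant over wildtype (0.1 FPKM added) for genes averaging 1 FPKM or more in the member groups and related lists, 1 point per gene, with the number of genes in brackets. Black bars are medians and dashed lines mark 1.5-fold. The members' groups lie to the right of 0 in their medians (0.84 for the factors and 0.52 for the contractile genes). The other lists of muscle genes and that of heart markers have medians from -0.23 to 0.07, while those of neuron and erythroid markers lie to the right and that of tail bud markers to the left.

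In whole embryos, more cells of a type and more RNA per cell cannot be told apart, so markers of other cell types were read in the same way. These marker lists too were chosen with earlier results of these data known, so their counts are given as a description. Over all loci at 1 FPKM or more, 3.51% were past the fold with the mutant higher and 1.47% with the mutant lower. Heart markers gave 0 of 10 past the fold (median log2 ratio -0.23; summed level 430 FPKM in mutant and 552 in wildtype embryos). Among them *Gata4*, at a log2 ratio of -0.43, and *Hand1*, at -0.35, were farthest from 0 beside *Myl7*. This list shares *Myl7*, *Myh6* and *Tnni3* with the sarcomere list. Markers of somite derivatives gave 0 of 7 past the fold (-0.07; 62.1 and 68.9 FPKM), with *Foxc2* at 8.52 and 10.5 FPKM (-0.29), *Tcf15* at 16.2 and 19.3 FPKM (-0.25) and *Meox1*, which is also among the upstream factors. *Pax1*, which marks the sclerotome, was at 8.98 and 8.25 FPKM (0.12).

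Neuron markers were past the fold in 9 of 10, all with the mutant higher (median log2 ratio 1.40; summed level 201 and 81.0 FPKM). The largest ratios were those of *Cntn2* (2.25), *Dcx* (1.67) and *Nefm* (1.57), and the most abundant was *Tubb3*, at 99.9 and 37.0 FPKM. *Cntn2*, at 4.76 and 0.925 FPKM, reached a mean of 1 FPKM only through its mutant value. Erythroid markers were past it in 6 of 8, all with the mutant higher (0.86; 12727 and 6030 FPKM), led by *Hbb-y* (1.23), *Alas2* (1.05) and *Hba-x* (1.02), the last being the most abundant at 4602 and 2274 FPKM. Tail bud markers were past it in 5 of 8, all with the mutant lower (-1.03; 25.2 and 48.6 FPKM), with *Cdx2* at -1.62, *Hes7* at -1.52 and *Msgn1* at -1.36. *Cdx2* was also the most abundant of these, at 3.22 and 10.1 FPKM. *Hes7*, at 0.922 and 2.83 FPKM, reached a mean of 1 FPKM only through its wildtype value. The 12 housekeeping genes gave 0 past the fold (-0.02), with *Pgk1* (-0.27) and *B2m* (0.17) farthest from 0 and *Ppia*, the most abundant, at 3784 and 3948 FPKM. None of these marker genes was at 0 in either genotype. *Myog* and *Myh3* thus had higher values in mutant embryos alongside neuron and erythroid markers, while tail bud markers had lower values. What underlies these differences was not tested.

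Reads shared between related genes bear on the myosins. In the longest coding transcript of each member in GENCODE M21, every stretch of 100 bases, the read length, was compared with the transcripts of all other genes. Up to 2 mismatches were allowed. Transcripts were compared in the same orientation only, so matches to the opposite strand were not searched. No stretch was shared for *Myf5*, *Myf6*, *Myod1*, *Myog*, *Acta1*, *Tnnt1* and *Chrng*. For *Myh3*, 6.19% of stretches were shared, the largest part with *Myh2* (3.29%), whose level was at most 0.0191 FPKM. The other genes that shared stretches with *Myh3* were not recorded, so how far their reads enter its value is unknown. For *Myh8* it was 21.3%, and for *Chrna1* 1.75%. The libraries did not keep strand, and *Acta1* lies inside the long model *Gm20388* of the opposite strand, from which its reads cannot be told apart. *Myh3* contains the microRNA gene *Mir6923* on its own strand, and no annotated gene overlaps the other 8 members.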

How the data were processed

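RNA-seq was performed on 6 male embryos at E9.5, 3 per *Smchd1* genotype (wildtype or homozygous for MommeD1), grouped by the genotype in their labels. The authors aligned the reads to mm10 with TopHat2 2.0.6 and Bowtie2 2.0.2 and ran Cufflinks and Cuffdiff 2.0.2, per the submitters' processing notes. The deposited table gives 1 FPKM value per locus and genotype, with Cuffdiff's scaling. Its sample codes were matched to the genotypes through the named samples of the study's own copy of that table. Columns with the authors' fold change, test statistic, p-value and q-value were not used. The annotation release and the scaling option are not given in the sources used here. No read counts were used, so depth is unknown, no counting interval was computed, and a count test could not be run.

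Locus starts were counted from 1. A log2 ratio was taken after 0.1 FPKM was added to each value, the floor was a mean of 1 FPKM and the fold 1.5. With 1 value per genotype no test was made. Members and gene lists were chosen with earlier results of these data known. Text names all members, *Smchd1*, for each list the 3 largest absolute log2 ratios and the highest mean among genes above the floor, and a few family partners. Some genes that this rule names are not reported here. *Lbx1*, *Msc*, *Mybph*, *Myh1*, *Myh2*, *Myh4*, *Myh6*, *Myh7b*, *Tmem8c*, *Sgca*, *Ckm* and *Pax1* were named after their values were seen, and so were the loci at 1 to 5 and 0.1 to 1 FPKM used as background. Other pseudocounts, floors, folds and scalings were tried. The steps were tested on simulated data. Promoters came from RefSeq (GRCm38.p6) and gene models from GENCODE M21. Python 3.11.15, numpy 2.4.6, pandas 2.3.3 and matplotlib 3.10.9 were used.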

Additional observations from a re-analysis of the deposited data

How the results depend on the processing

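The log2 ratio of each of the 10 members kept its sign under both other pseudocounts (0.01 and 1 FPKM) and all 4 other scalings between the genotypes, from 0.90 to 1.252 for *Myog*, 0.97 to 1.60 for *Myh3*, 0.30 to 0.51 for *Myf5*, 0.43 to 0.56 for *Tnnt1* and -0.19 to -0.13 for *Acta1*. With 1 FPKM added, *Myf6* (0.34), *Myod1* (0.30) and *Chrng* (0.21) no longer reached 1.5-fold. The 2 of 5 members past the fold became 4 of 5 at the smaller of the other folds tried. They became 5 of 9 and 3 of 6 at floors of 0.1 and 0.5 FPKM, 5 of 10 with no floor and 0 of 1 at a floor of 5 FPKM. Over all loci the 438 past it with the mutant higher became 1102 at that smaller fold, 122 at 2-fold, 1085, 688 and 134 at floors of 0.1, 0.5 and 5 FPKM, 1242 with no floor and 253 with 1 FPKM added. The median of the contractile genes was -0.1708 at a floor of 5 FPKM, with *Acta1* alone, and at that floor the factors gave no value. The factor median minus the contractile median, 0.3163 as reported, was 0.6437 with no floor, 0.2026 at a floor of 0.5 FPKM and 0.1767 with 1 FPKM added. The other scalings moved the mutant values by at most 0.043 on the log2 scale. Leaving out members that overlap another locus of the table changed nothing, as there were 0.

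Leaving out single embryos could not be run on 1 value per genotype. No paired analysis was possible because the table gives 1 value per genotype and none per embryo. Differences between embryos of a genotype, the depth and the precision of any value are unknown here.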
